A study of Mus musculus with 9 samples.

Results

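The 48 genes described here drive the mitotic spindle and its checkpoint. They were taken by a list of gene symbols, and the rule sets no threshold on a difference between groups; each gene is read by the probe set with its highest mean signal over the 9 arrays. All 48 were found among the 18193 genes that have a probe set named for them alone, and all 48 were tested. The array, Affymetrix Mouse Genome 430 2.0, reads 45101 probe sets, of which 29811 were bright enough to test. D3-pOct4 cells, a mouse embryonic stem cell line, were grown in serum for 7 days in 3 conditions. The LIF group had leukemia inhibitory factor in the medium at 1000 U/ml, the cytokine that keeps such cells undifferentiated. The no LIF group had none, and the DETA/NO group had no LIF and 2 µM of DETA/NO, a slow donor of nitric oxide. Each group holds 3 arrays, replicates 1, 2 and 3, from passages 31, 33 and 34 of the line. Beyond the passage, the labels do not say how far the cultures were separate, so biological and technical spread between arrays cannot be told apart. They do not explain the pOct4 in the name.

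Mitosis begins when Aurora and Polo kinases and CDC25 phosphatases bring the cyclin B kinase to full activity. Kinetochores built on CENP-A chromatin then attach to spindle microtubules, and unattached kinetochores keep the checkpoint proteins MAD2 and BUBR1 bound to CDC20. Once the checkpoint is satisfied, CDC20 turns on the anaphase-promoting complex, securin is destroyed, separase opens cohesin, and the central spindle guides cytokinesis. Mouse embryonic stem cells divide fast, with a short first gap phase. Most such genes peak together in the second gap phase and mitosis, through promoters with a CHR element bound by the DREAM and MuvB complexes and CCAAT boxes bound by NF-Y.

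The promoters show what many of these genes share in sequence. In the RefSeq promoter windows of GRCm38.p6, from 250 bases before to 50 bases after the gene start, 41 of the 48 members were matched by symbol. The CHR letters TTTGAA, read on either strand, were in 30 of the 41 windows (73.2%), against 18.1% of the windows of all 27025 genes. Between 60 bases before and 50 bases after the start they were in 28 windows (68.3%), against 5.46% of all genes. CCAAT, read on either strand, was in 29 windows (70.7%) against 37.9%, and both motifs were in 25 (61.0%) against 7.12%. A variant with the letters TTTAAA, a palindrome, was in 8 windows (19.5%) against 13.2%. A match is a string of letters and not a measured site. TTTGAA was in 32.5% of 80 windows of a wider list of mitosis genes and in 14.3% of 28 windows of DNA replication genes, so its share was highest in the members, while CCAAT was in 58.8% and 67.9%.

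The 120 bases before the start are printed for the 5 members described array by array below that hold both motifs there, because both motifs were found together in 25 of the 41 windows. Each runs 5′ to 3′ on the strand of the gene, and capitals mark TTTGAA or its reverse complement TTCAAA, and CCAAT or its reverse complement ATTGG.
Ube2c, chr2:164769809-164769928, plus strand: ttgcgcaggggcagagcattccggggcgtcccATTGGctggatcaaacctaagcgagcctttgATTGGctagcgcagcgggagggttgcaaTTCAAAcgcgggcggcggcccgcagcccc
Cdc20, chr4:118437344-118437463, minus strand: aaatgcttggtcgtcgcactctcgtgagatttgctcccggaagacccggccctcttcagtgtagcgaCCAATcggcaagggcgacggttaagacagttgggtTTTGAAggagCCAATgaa
Kif22, chr7:127042421-127042540, minus strand: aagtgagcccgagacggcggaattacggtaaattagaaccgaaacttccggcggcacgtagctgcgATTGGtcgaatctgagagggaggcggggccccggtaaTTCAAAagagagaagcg
Bub3, chr7:131560250-131560369, plus strand: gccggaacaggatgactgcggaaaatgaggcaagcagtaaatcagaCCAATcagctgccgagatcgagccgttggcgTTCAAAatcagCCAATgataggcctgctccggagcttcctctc
Top2a, chr11:99024190-99024309, minus strand: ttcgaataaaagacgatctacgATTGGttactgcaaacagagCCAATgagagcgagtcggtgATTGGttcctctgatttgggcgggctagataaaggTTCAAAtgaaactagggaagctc

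Some arrays stand apart. The median signal of an array was 20.8 to 23.3 on LIF replicate 1 and DETA/NO replicates 1 and 2, called brighter here, and 13.9 to 17.8 on the other 6, although all were scaled to the same trimmed mean of 100.0. The word refers to the median only. The 90th percentile of the signal was 328.6, 336.7 and 330.8 on these 3 arrays and 334.2 to 342.6 on the other 6. No LIF replicate 1 and DETA/NO replicate 3, from different groups and passages, are the most alike pair of the 36, with a correlation of 0.977. Socs3, a direct target of LIF signalling, read 282 on the array labelled LIF replicate 2 and 3054 on that labelled no LIF replicate 2, opposite to the other arrays of those groups. Directions below follow the labels. Embryonic stem cell markers were present on every array, with all 8 tested and a summed signal of 15695 to 23265 with LIF, 18346 to 27913 without and 12783 to 17077 with DETA/NO. Fibroblast markers, 4 of 8 of which were bright enough to test, summed to at most 379. Markers of primitive and parietal endoderm, all 9 tested, summed to 4144 to 13503 with LIF, 1632 to 5688 without and 1555 to 3729 with DETA/NO. The 13503 was LIF replicate 3 alone, with 6152 and 4144 on LIF replicates 1 and 2. The 1632 and 1555 were no LIF replicate 1 and DETA/NO replicate 3. The other arrays without LIF summed to 5098 and 5688, and the other DETA/NO arrays to 3360 and 3729. The 5 primitive streak markers summed to 1063 on no LIF replicate 1 and 1028 on DETA/NO replicate 3, the alike pair on which most members were also high, and to 70.4 to 479 on the other 7 arrays. The 5 neuroectoderm markers summed to 92.0 to 236 over all arrays. The part of these other cells in the results was not tested.

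The members were well measured. The mean signal over the 9 arrays was above 100 for 46 of the 48 and had a median of 512, against 60.1 for all tested probe sets. Cdc25b (67.6) and the kinesin Kif15 (10.2) were the exceptions, and Kif15 lay below the median of every array but no LIF replicate 2, where it read 16.1 against a median of 15.9. The SD of the log2 signal over the 9 arrays ran from 0.25 for Cenpn to 0.90 for Kif20b, with a median of 0.46 against 0.61 for all tested probe sets. Of the chosen probe sets, 7 have the suffix _x_at and 5 the suffix _s_at, which can bind other transcripts, Cdc20, Kif22, Kif2c, Incenp, Bub3 and Pttg1 among them.

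**Figure D1:**
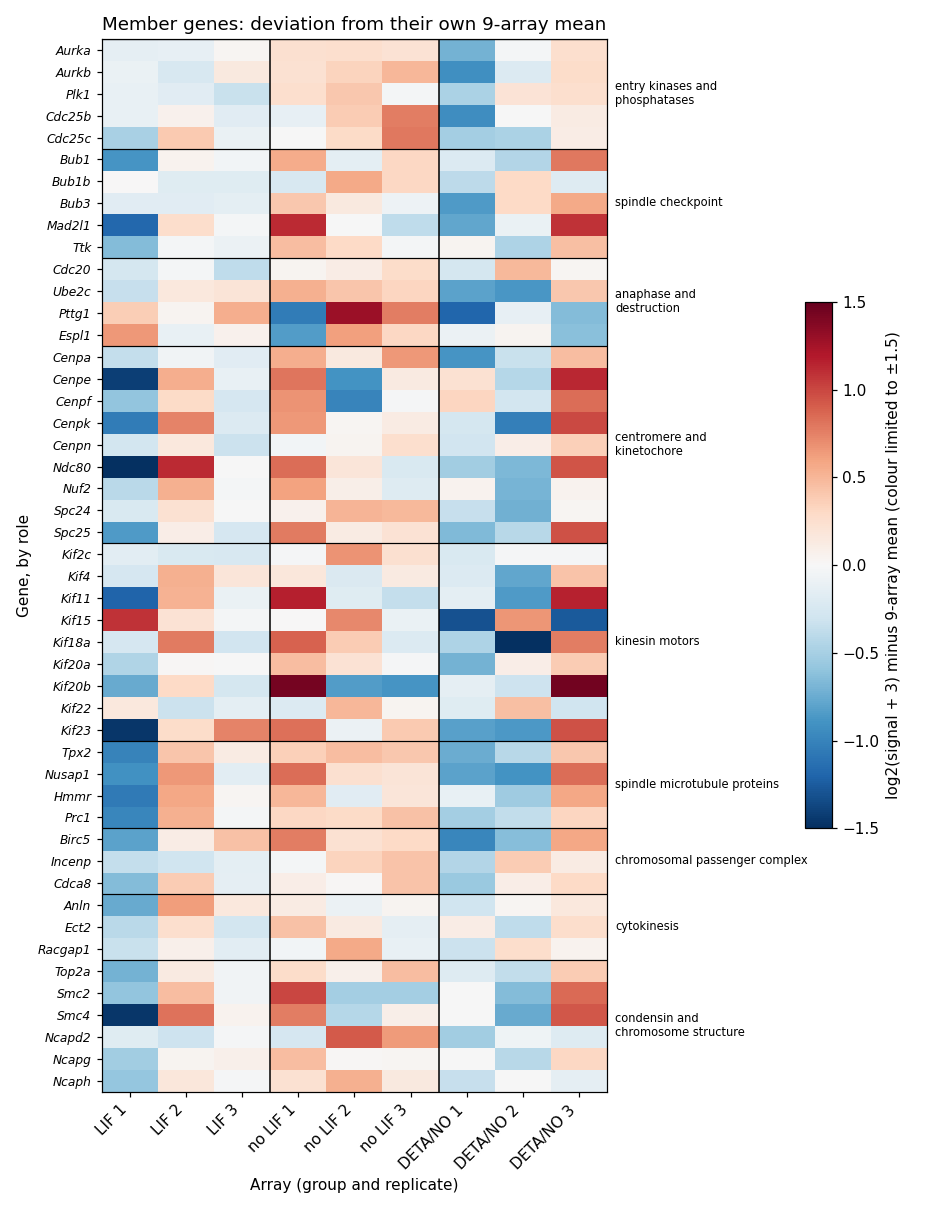
Deviation of each of the 48 members (rows, by role) from its own mean of log2(signal + 3) over the 9 arrays (columns); red is above and blue below the mean, and colours are limited at 1.5. Blue columns stand out at LIF replicate 1 and DETA/NO replicate 1, where 43 members each were below their own mean, and red ones at no LIF replicate 1 and DETA/NO replicate 3, where 37 and 40 were above it.

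The heat map of deviations shows that many members were low, or high, on the same arrays, and that these arrays come from more than 1 group. LIF replicate 1 held the lowest signal of 21 members, DETA/NO replicate 1 that of 14 and DETA/NO replicate 2 that of 6. Thus 41 of the 48 (85.4%) were lowest on one of the 3 brighter arrays, against 42.3% of all tested genes. These shares are not matched for signal, as the median member stood at the 90.1th percentile of tested probe sets. Of the 58 further tested probe sets of these genes, 26 were lowest on a brighter array, against 35.3% of all tested probe sets. Only 3 members (6.25%) were highest on a brighter array, against 39.5% of tested genes. The highest signal lay on the alike pair for 22 members (45.8%), against 23.3% of tested genes. Relative to the median of all tested probe sets, the members' median deviation was -0.61, -0.46 and -0.48 on LIF replicate 1 and DETA/NO replicates 1 and 2. On the other 6 arrays it was between -0.09 and 0.48, highest on no LIF replicate 1 and DETA/NO replicate 3 (0.42). The brighter arrays belong to the LIF and DETA/NO groups and none to the no LIF group, so that group and brightness are partly confounded.

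**Figure D2:**
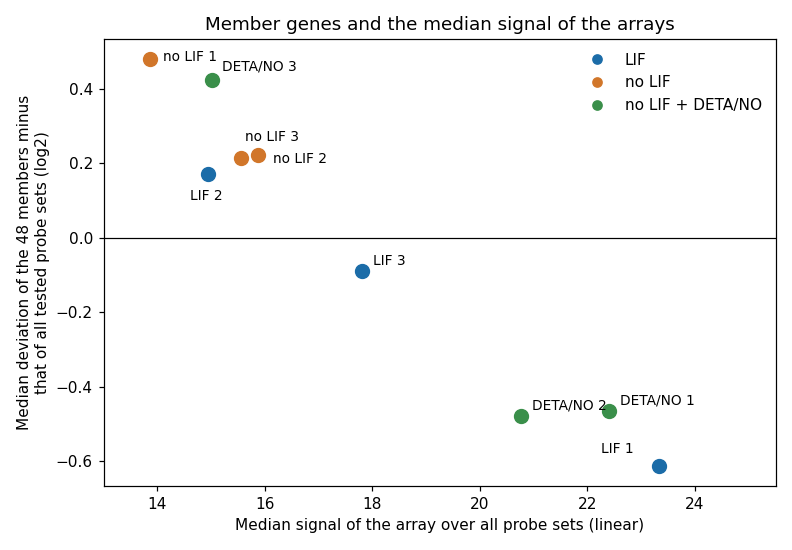
Median log2 deviation of the 48 members minus that of all tested probe sets (vertical axis) against the median signal of the array over all probe sets (horizontal axis, linear); each point is 1 array, coloured by group. The 3 arrays with a median signal above 20 lie at -0.61 to -0.46 and the other 6 at -0.09 to 0.48. Both axes draw on the level of all probe sets, so part of the fall is built in. Without the subtraction the members' median deviation was -0.47 to -0.35 on the 3 arrays and -0.05 to 0.38 on the other 6.

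The first comparison asks how cells without LIF differ from cells with it. Of the 48 members, 45 were higher without LIF, with a median log2 difference of 0.37 (range -0.21 to 0.70), but no member passed the test. Over all tested genes 50.4% were higher, with a median of 0.01, and over all tested probe sets 42.7%, with a median of -0.10. The limma adjusted p was at least 0.973 for every member, with 0 called against a background of 0.0% of tested probe sets. At an unadjusted p under 0.05, 0 members were higher (background 0.275%) and 0 lower (1.26%). In 11 members all 3 arrays without LIF lay above all 3 with it (background 2.88%), and in 0 the reverse (4.72%). The 11 were Aurka, Aurkb, Plk1, Bub3, Ttk, Cdc20, Ube2c, Cenpa, Spc25, Kif2c and Incenp. These background shares are over all tested probe sets. Among the 13376 tested genes, each read by its brightest tested probe set, 487 lay apart upward and 492 downward. Of the same genes, 40 were higher and 110 lower at an unadjusted limma p under 0.05. In a bulk sample, a different share of dividing cells and a different amount of RNA of these genes per dividing cell cannot be told apart.

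**Figure D3:**
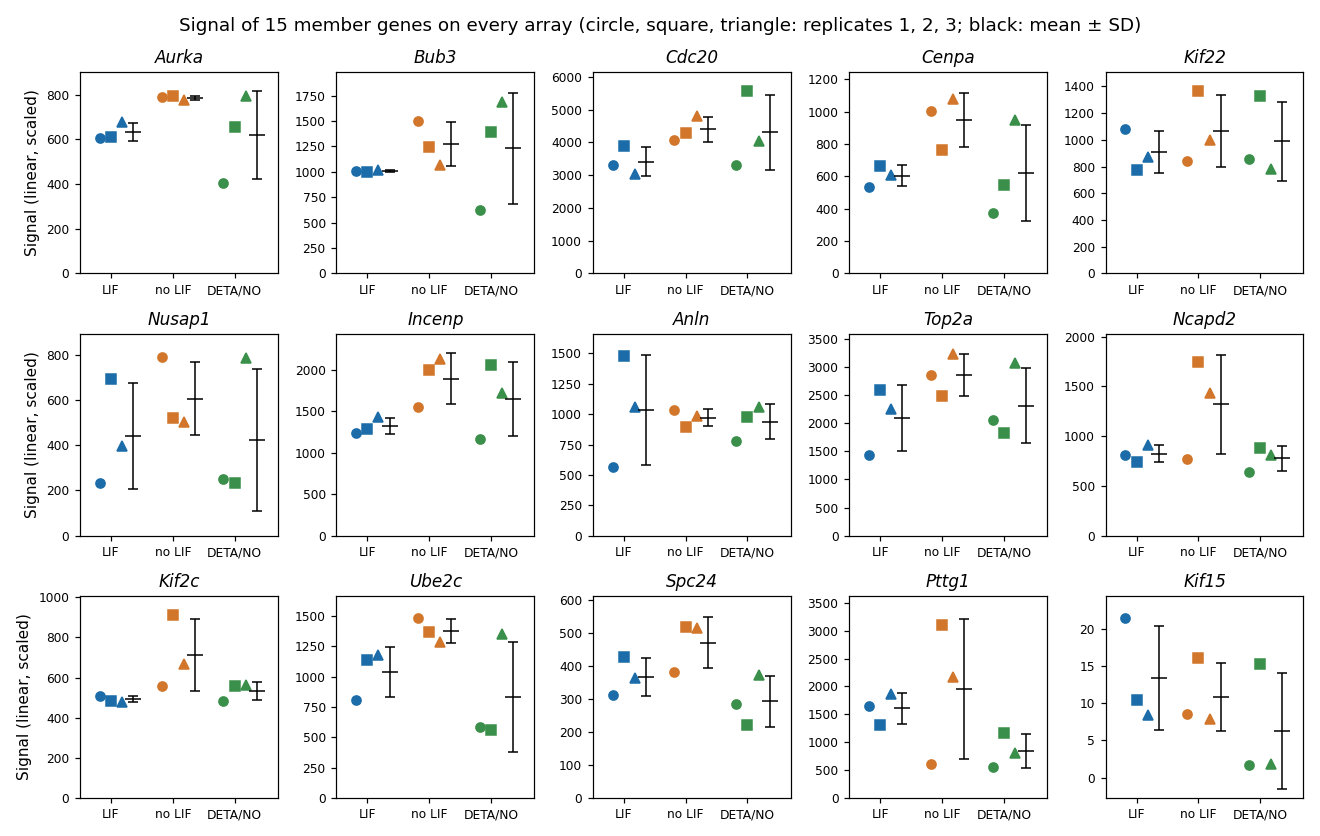
Signal (linear, as deposited) of 15 members on every array; circles, squares and triangles are replicates 1, 2 and 3, and the black bar is the mean ± SD of 3 arrays. Aurka, Bub3, Cdc20, Cenpa, Kif2c, Ube2c and Incenp lie higher on all 3 arrays without LIF than on all 3 with it, while the DETA/NO arrays of Bub3 run from 627 to 1684, beyond both other groups.

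Among the kinases that start mitosis, Aurka, which matures centrosomes and the spindle, read 605, 612 and 678 on LIF replicates 1 to 3 and 789, 793 and 776 on the arrays without LIF. These groups did not overlap, and the log2 difference was 0.32 (SE 0.32, limma adjusted p = 0.973). On the DETA/NO arrays Aurka read 405, 654 and 793, so that replicate 1 was the lowest of all 9 and replicate 3 lay among the arrays without LIF. All 5 entry kinases and phosphatases were higher without LIF, with a median of 0.41 and a narrow range of 0.32 to 0.42. Plk1, the Polo kinase, ranged from 385 on DETA/NO replicate 1 to 711 on no LIF replicate 2, and Aurkb, the catalytic subunit of the passenger complex, from 119.7 to 324. Cdc25b and Cdc25c, phosphatases that activate CDK1, ranged from 32.5 to 112 and from 66.3 to 167, both highest on no LIF replicate 3. All 5 genes of this role were lowest on DETA/NO replicate 1.

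The 5 checkpoint genes were also all higher without LIF, with a median of 0.50. Bub3, which docks the BUB kinases at kinetochores, read 1005, 1002 and 1021 with LIF and 1501, 1249 and 1072 without. The LIF arrays lay within a narrow band below all 3 arrays without LIF, and the log2 difference was 0.32 (SE 0.37, adjusted p = 0.973). With DETA/NO it read 627, 1390.5 and 1684, the lowest and the highest signals of the 9 arrays. The kinase Bub1, the MAD2 gene Mad2l1 and the MPS1 kinase gene Ttk were all lowest on LIF replicate 1, at 497, 284 and 208. Mad2l1 had the widest span of this role, 4.97 times from lowest to highest, with 1412 on no LIF replicate 1 and 1369 on DETA/NO replicate 3. Bub1b, which encodes BUBR1, had a different pattern, with its highest signal of 1053 on no LIF replicate 2.

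Of the anaphase genes, Cdc20, the activator of the anaphase-promoting complex, read 3305, 3896 and 3043 with LIF and 4078, 4289.9 and 4809 without. Every array without LIF was above every array with it, at a log2 difference of 0.37 (SE 0.26, adjusted p = 0.973). With DETA/NO the signals were 3299.5, 5563 and 4044, so replicate 2 was the highest of all 9. Ube2c, the ubiquitin-conjugating enzyme of that complex, read 804, 1139.6 and 1175 with LIF and 1485, 1366 and 1287 without, again apart. Espl1, which encodes separase, was 1 of the 3 members lower without LIF, at -0.17 (SE 0.43). It read 336 on no LIF replicate 1 and 392 on DETA/NO replicate 3, the alike pair, and 559 to 952 elsewhere. Pttg1, which encodes its inhibitor securin, read 613 on no LIF replicate 1 but 3103 and 2167 on the other arrays without LIF, a wide spread around 1644, 1307 and 1863 with LIF.

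At the centromere, Cenpa, the histone variant that marks it, read 537, 665 and 611 with LIF and 1004, 764 and 1079.9 without. The groups did not overlap, and the log2 difference was 0.64 (SE 0.37, limma adjusted p = 0.973). All 9 genes of this role were higher without LIF, with a median of 0.36, and Spc25, a subunit of the NDC80 complex that binds microtubules, had the highest value of the 48 at 0.70 (SE 0.47). Its signals were 153, 299 and 232 with LIF and 478, 303 and 323 without. Ndc80 and Nuf2, the microtubule-binding arm of the same complex, ranged from 45.5 to 327 and from 59.7 to 150.4. Ndc80 was lowest on LIF replicate 1 and highest on LIF replicate 2, so that its LIF arrays spanned all the others. Spc24, the partner of Spc25, read 311, 428 and 363 with LIF and 381, 519 and 515 without. The inner kinetochore genes Cenpk and Cenpn ranged from 123 to 514 and from 179.9 to 290.3, with Cenpn the steadiest of the 48. Cenpe, a kinesin that carries chromosomes to the spindle equator, and Cenpf, a large outer kinetochore protein, ranged from 66.7 to 405 and from 199.8 to 718, both highest on DETA/NO replicate 3.

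Among the 9 kinesin motors, 7 were higher without LIF and Kif4 (-0.13, SE 0.41) and Kif15 (-0.21, SE 0.60) were lower. Kif2c, which depolymerises microtubules at faulty attachments, read 507, 485 and 479.9 with LIF and 559.9, 909 and 669.8 without. The groups were apart and the log2 difference was 0.51 (SE 0.30, limma adjusted p = 0.973). Kif22, which pushes chromosome arms away from the poles, read 1079, 773 and 873 with LIF and 839, 1363 and 996 without, which overlap, at 0.21 (SE 0.33). Kif11, the motor that separates the poles, and Kif20b had one shared feature: their signals were 696 and 711 on no LIF replicate 1 and 688 and 713 on DETA/NO replicate 3. Elsewhere Kif11 was at most 444 and Kif20b at most 321. The chromokinesin Kif4 ranged from 62.5 to 159.6, and Kif18a, which damps chromosome movements, from 29.4 to 179. Kif20a and Kif23, motors of the central spindle, ranged from 265 to 599 and from 83.5 to 461.

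Spindle microtubule proteins were all 4 higher without LIF, with a median of 0.53. Nusap1, which bundles spindle microtubules, read 233, 693 and 394 with LIF and 791, 519.8 and 503 without, at 0.56 (SE 0.54). LIF replicate 2 lay above no LIF replicates 2 and 3, so these groups overlap. Tpx2, the activator of Aurora A, Hmmr and the midzone bundler Prc1 likewise had their lowest signals, 193, 176 and 129.7, on LIF replicate 1. In the passenger complex all 3 genes were higher. Incenp, its scaffold, read 1239.95, 1293 and 1435 with LIF and 1553, 2002 and 2136 without, apart at 0.51 (SE 0.29, limma adjusted p = 0.973). Birc5, which encodes survivin, ranged from 372 to 1249.9 and Cdca8, which encodes borealin, from 636 to 1346.

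The 3 cytokinesis genes had a median of 0.27, close to the 0.27 of the kinesin motors and above the 0.19 of the 4 anaphase genes. Anln, the scaffold of the contractile ring, read 564, 1475 and 1062 with LIF and 1034, 896 and 983 without. The LIF arrays lay on both sides of the others, and the log2 difference was 0.01 (SE 0.36). Ect2 and Racgap1, which switch on RhoA at the cell equator, ranged from 444 to 798 and from 416 to 780.4, both lowest on LIF replicate 1. Of the 6 genes of chromosome structure, all were higher, with a median of 0.39. Top2a, the topoisomerase that untangles sister DNA, read 1432, 2584 and 2257 with LIF and 2853, 2477 and 3228 without, at 0.48 (SE 0.31, limma adjusted p = 0.973). Only LIF replicate 2 reached into the range without LIF, but a second Top2a probe set differed by -0.66. Its signal peaked on LIF replicate 1 (2103), the array where the chosen probe set was lowest. It was dimmest on the alike pair, at 156 on no LIF replicate 1 and 186 on DETA/NO replicate 3. Ncapd2, a condensin I subunit, read 811, 743 and 911 with LIF and 772, 1749 and 1436 without, at 0.61 (SE 0.35, limma adjusted p = 0.973). Here no LIF replicate 1 lay among the LIF arrays. The condensin ATPases Smc2 and Smc4 ranged from 353 to 1114 and from 295 to 1565, and the subunits Ncapg and Ncaph from 249 to 497 and from 429 to 935.

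By passage the median difference of the members was 0.89 in passage 31, 0.00 in passage 33 and 0.21 in passage 34. Over all tested genes it was -0.02, -0.06 and 0.05. Without LIF replicate 1, which is the brighter array of this comparison, 36 members were higher and the median was 0.16. Leaving out both replicate 2 arrays gave 44 higher and a median of 0.50.

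**Figure D4:**
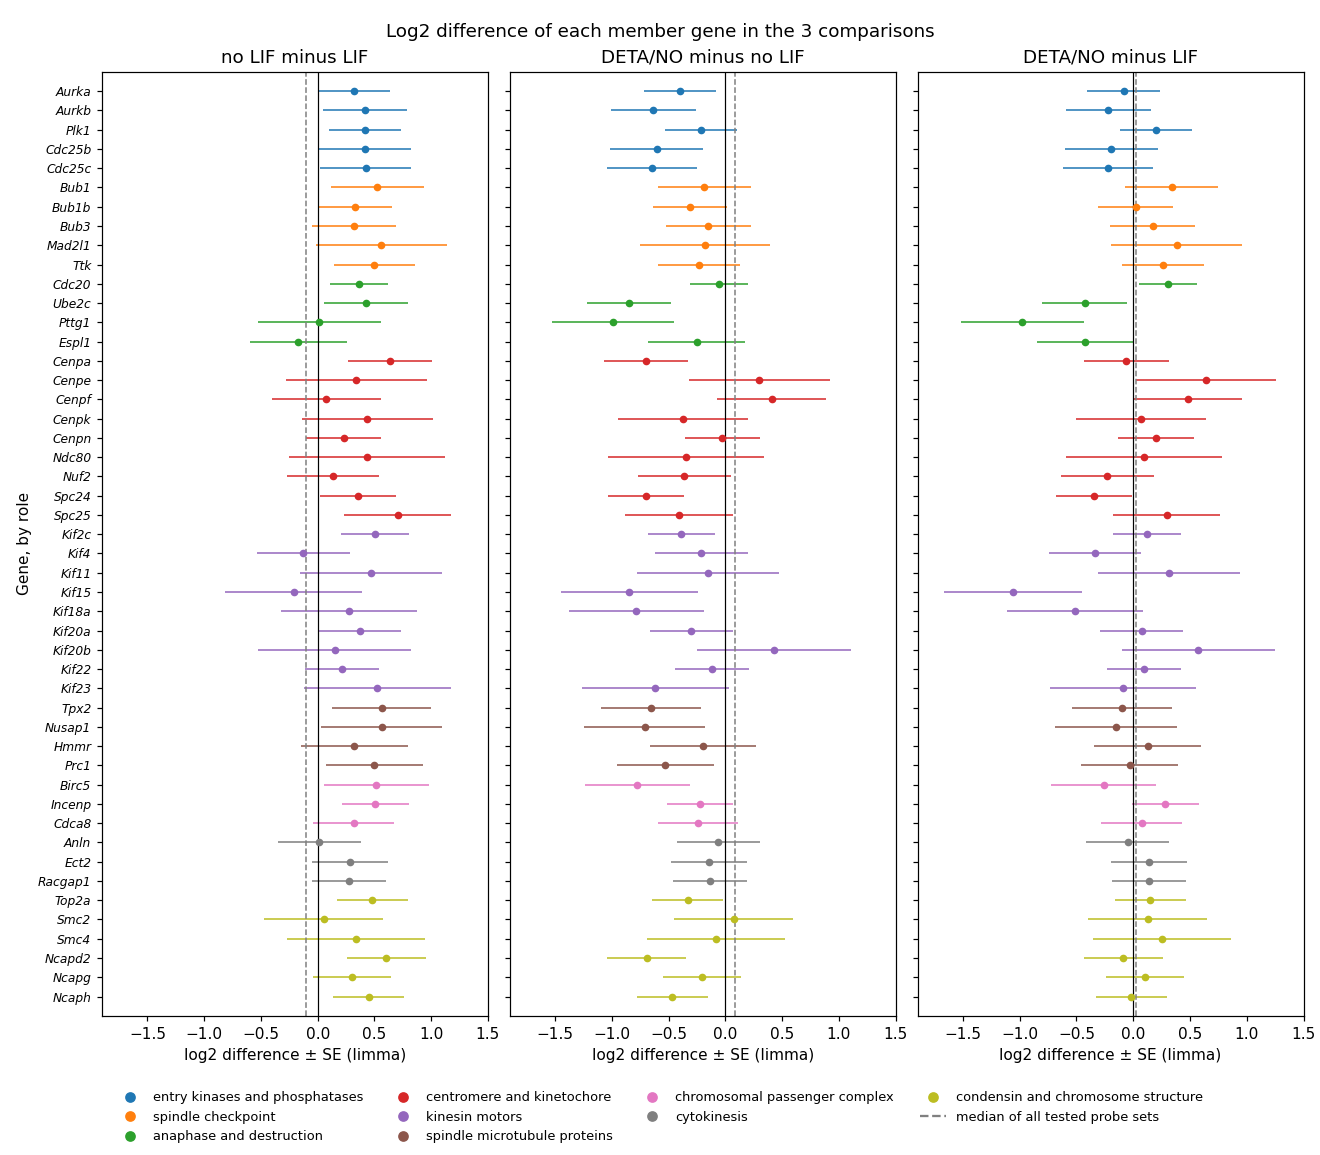
Log2 difference ± SE (limma, log2(signal + 3) scale) of each member in the 3 comparisons, coloured by role; the dashed line is the median of all tested probe sets. Most points lie right of 0 for no LIF minus LIF (45 of 48), left of 0 for DETA/NO minus no LIF (44 of 48) and on both sides for DETA/NO minus LIF (27 higher, 21 lower).

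Next, cells without LIF were compared with and without the nitric oxide donor. With DETA/NO 44 of the 48 members were lower, with a median log2 difference of -0.30 (range -0.99 to 0.43), and no member passed the test. Of all tested genes 47.6% were higher, with a median of -0.03, and of all tested probe sets 56.0%, with a median of 0.08. The 3 comparisons share arrays: the no LIF arrays stand on one side of both the first and this one, so the opposite signs are not independent. Adjusted p was at least 0.929 for every member, with 0 called (background 0.0%). At an unadjusted p under 0.05, 1 member was lower (background 0.782%) and 0 higher (4.24%). Groups were apart downward in 2 members, Spc24 and Ncaph (background 2.52%), and upward in 0 (6.4%). Among the 13376 tested genes, each read by its brightest tested probe set, 385 lay apart downward and 505 upward. Of the same genes, 113 were lower and 198 higher at an unadjusted limma p under 0.05.

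The member with the smallest p was Ube2c, which read 584, 559 and 1352 with DETA/NO against 1485, 1366 and 1287 without. Replicates 1 and 2 were far below and replicate 3 within the untreated range, and the log2 difference was -0.85 (SE 0.37, limma adjusted p = 0.929). Spc24 read 286, 219.7 and 372 with the donor against 381, 519 and 515, apart at -0.70 (SE 0.33, limma adjusted p = 0.929). Pttg1 had the most negative value of the 48, -0.99 (SE 0.54, limma adjusted p = 0.929), from signals of 554, 1168 and 808. It was lower in 3 of 3 passages, although no LIF replicate 1 (613) lay within the donor arrays. Ncapd2 read 640.4, 882 and 807 with DETA/NO, at -0.69 (SE 0.35, limma adjusted p = 0.929), and overlapped no LIF replicate 1 only. Cenpa read 371, 546 and 949.7, at -0.70 (SE 0.37, limma adjusted p = 0.929), with replicate 3 within the range without the donor.

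By role, all 5 entry kinases and phosphatases were lower with a median of -0.61, and all 4 spindle microtubule proteins with a median of -0.59. The 4 anaphase genes had a median of -0.55 and the 3 cytokinesis genes one of -0.14. Nusap1 read 252, 235 and 785 with the donor, at -0.71 (SE 0.54), so that 2 arrays were low and replicate 3 matched no LIF replicate 1. Aurka differed by -0.40 (SE 0.32) and Top2a, which read 2048, 1817 and 3064, by -0.33 (SE 0.31). For Incenp the donor arrays read 1169, 2059.8 and 1723, at -0.23 (SE 0.29), and for Bub3 the difference was -0.15 (SE 0.37). Kif22 read 853, 1325 and 785 (-0.12, SE 0.33), Anln 777, 973 and 1059 (-0.06, SE 0.36), and Cdc20 differed by -0.06 (SE 0.26). These last 3 genes lay well within their spread.

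The 4 members higher with DETA/NO were Kif20b (0.43, SE 0.68), Cenpf (0.41, SE 0.48), Cenpe (0.30, SE 0.62) and Smc2 (0.07, SE 0.52). Their standard errors exceed the differences. Kif20b read 236, 209.7 and 713 with the donor against 711, 145 and 139.6 without, so that only the alike pair was high. Cenpe read 215, 136 and 405 against 321, 97.1 and 201.

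Passage by passage, the median difference of the members was -0.70 in passage 31, -0.46 in passage 33 and 0.20 in passage 34. Over all tested genes it was -0.03, 0.08 and -0.09. The 2 passages in which the members' median was negative are those whose DETA/NO array is a brighter one. With brightness as a block in the fit the members' median turned to 0.11, with 27 members higher and 21 lower. Over the 6 dimmer arrays alone the members' median was 0.12 with 30 higher. DETA/NO replicate 3, of the alike pair, is the one dimmer donor array, and no array without LIF is a brighter one. Both of these medians therefore lean on that donor array. Without DETA/NO replicate 1 the median was -0.20 with 34 lower, without DETA/NO replicate 3 it was -0.53 with 46 lower, and without the alike pair -0.47 with 44 lower. The direction therefore differs between fits, and the part of brightness in it was not tested further.

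In the third comparison, of DETA/NO with LIF, the members were on both sides of 0. Higher with the donor were 27 and lower 21, with a median of 0.07 (range -1.06 to 0.64), against 49.1% higher and a median of -0.01 over all tested genes. Adjusted p was 1 for every member, with 0 called (background 0.0%), and unadjusted p was under 0.05 for 0 (1.06% higher and 0.876% lower in the background). Among the 13376 tested genes 478 lay apart downward and 358 upward, and at an unadjusted limma p under 0.05 109 were higher and 126 lower. In the members, groups were apart downward in 1 (background 3.19%) and upward in 0 (2.79%). That 1 was Pttg1, at 554, 1168 and 808 against 1644, 1307 and 1863, a log2 difference of -0.98 (SE 0.54). Without the donor or LIF it read 613, 3103 and 2167, which overlapped the DETA/NO arrays. Kif15, a motor that supports Kif11, had the lowest value at -1.06 (SE 0.60). Its signals were 1.66, 15.3 and 1.82 with DETA/NO, 21.4, 10.4 and 8.35 with LIF and 8.59, 16.1 and 7.81 without, all too dim to read further. Ube2c was at -0.43 (SE 0.37), Spc24 at -0.35 (SE 0.33) and Cdc20 at 0.31 (SE 0.26). Cenpe had the highest value, 0.64 (SE 0.62). All 5 checkpoint genes were higher, with a median of 0.26, and 4 of 5 entry kinases and phosphatases were lower, with a median of -0.19.

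The median by passage was 0.07, -0.50 and 0.38 in passages 31, 33 and 34. In passage 31 both arrays are brighter ones, in passage 33 only the donor array is, and in passage 34 neither is. Without the alike pair 35 members were lower and the median was -0.18, and without LIF replicate 1 it was -0.15 with 32 lower. Other settings moved it upward: it was 0.30 with 37 higher over the 6 dimmer arrays alone, 0.28 with 34 higher with the brightness block, 0.21 with 34 higher without LIF replicate 2 and 0.18 with 39 higher without DETA/NO replicate 1.

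Other probe sets of the same genes gave a weaker picture, and some bright ones went the other way. A total of 58 further tested probe sets belong to 34 members. They had the sign of the chosen one in 30, 35 and 35 cases in the 3 comparisons, in the order above, and their medians were 0.03, -0.00 and -0.05. Among the 31 with a mean signal above 100, 24 were higher without LIF (median 0.13) and 8 higher with DETA/NO than without (median -0.15). When all tested probe sets of a gene were averaged, 31 members were higher without LIF (median 0.18) and 37 were lower with DETA/NO (median -0.16). Bub3 turned to -0.41 and Aurka to -0.02 in the first comparison, so their direction rests on the chosen probe set.

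Within the alike pair the members did not all move as one. On both arrays 35 members were above their own mean and 6 were below it: Bub1b, Pttg1, Espl1, Kif2c, Kif22 and Ncapd2. The remaining 7 were split. Securin and separase, the inhibitor and the protease it holds, are both among the 6. Opposite examples were Kif20b, Kif11 and Mad2l1, whose signals on these arrays were the highest of the 9.

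Beyond the members, a wider list of mitosis genes, 94 of whose 95 measured genes were tested, went the same way with smaller values. Without LIF 69 were higher (median 0.17), with DETA/NO 68 were lower than without (median -0.18), and against LIF the median was 0.04. Cdk1, the kinase that the CDC25 phosphatases activate, read 616 ± 27.9 with LIF, 748 ± 94.8 without and 472 ± 141 with DETA/NO (SD, n = 3). It differed by 0.27 (SE 0.32, adjusted p = 0.973) without LIF and by -0.70 (SE 0.32, adjusted p = 0.929) with the donor. Only Pds5a, a cohesin regulator, had an unadjusted p under 0.05, at 1.16 (SE 0.50, adjusted p = 0.929) with the donor. The 35 DNA replication genes had medians of 0.28 (31 higher), -0.26 (29 lower) and 0.02. Gins2, a subunit of the replicative helicase, was the one with an unadjusted p under 0.05, at -0.93 (SE 0.38, adjusted p = 0.929) with DETA/NO against no LIF.

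CDK inhibitors, which stop the cycle, had medians of 0.04, 0.17 and -0.10 over 7 genes. Cdkn1a, which encodes p21, read 332 ± 80.0 with LIF, 647 ± 25.9 without and 349 ± 216 with DETA/NO (SD, n = 3). Its difference was 0.99 (SE 0.46, adjusted p = 0.973) without LIF and -1.09 (SE 0.46, adjusted p = 0.929) with the donor, in the direction of most members. With the donor against no LIF it was the one inhibitor with an unadjusted limma p under 0.05, while 4 of the 7 inhibitors were higher. Both Cdkn1a comparisons missed the threshold on the adjusted p as well.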

How the data were processed

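Signal intensities of 9 arrays were deposited on a linear scale. The authors made them with GeneChip Operating System 1.4.0.036 and global scaling, per the labels, and MAS5 is named in the submitters' processing notes; further steps are not given in the sources used here. Values were turned to log2(signal + 3), and a fold on this scale understates changes of dim probes. Without the 64 controls, 29811 probe sets at or above the 40th percentile of their array on at least 3 arrays were tested. Platform annotation gave 1 symbol to 34945 probe sets, several to 932 and none to 9160. The fit used limma 3.58.1 in R 4.3.3 (lmFit and eBayes with an intensity trend) over all 9 arrays with group as the only term, two-sided, with Benjamini-Hochberg adjustment across the whole tested table and a threshold of 0.05. It was tested on simulated arrays whose spread was that of the data divided by 3. That test does not show what the fit can detect at the full spread. The members, the gene lists and the tests were chosen with earlier results of these data known. Genes read array by array are the brightest of each of the 9 roles and the 5 with the smallest p in each comparison; the other members are given by ranges, except Spc25, Cenpe and Kif20b, whose arrays are given for their extreme values or their sign, chosen after these were seen. The pseudocount, filter, normalization, arrays and probe set per gene were varied. With 3 arrays a group, their number limits the precision.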

Additional observations from a re-analysis of the deposited data

How the results depend on the processing

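No member was called in any of the 24 alternatives, and none of these fits called a probe set in these comparisons. The median of the members kept its sign in the first comparison throughout. It fell, however, from 0.37 to 0.14 with a brightness block, with 34 members higher, and to 0.16 over the 6 dimmer arrays, with 36 higher. In this comparison the 6 dimmer arrays leave out LIF replicate 1 only. Their differences are therefore those of the fit without that array, and not a second check. In DETA/NO minus no LIF the members' median turned from -0.30 to 0.11 with a brightness block and to 0.12 over the 6 dimmer arrays alone, an alternative added after the data were seen. Both of these values lean on DETA/NO replicate 3, the one dimmer donor array. In DETA/NO minus LIF the members' median ranged from -0.18 to 0.30. Median centring moved the median of all tested probe sets from -0.10 to 0.12 in the first comparison and from 0.08 to -0.15 in the second, and the members' medians to 0.59 and -0.53. Same-numbered arrays share a passage, and the correlations of their deviations ran from -0.60 to 0.65. Those of differently numbered arrays ran from -0.64 to 0.64. With 3 arrays a group, and Socs3 opposite to the labels on both replicate 2 arrays with and without LIF, these values cannot show whether arrays were paired. The replicate block left the medians at 0.37, -0.30 and 0.07 with 0 members called. Of 38 differences of single genes given, 12 kept their sign in all alternatives. The sign changed as follows, and the causes were not tested.

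For no LIF minus LIF, averaging all tested probe sets gave Spc25 -0.005, Incenp -0.013, Ncapd2 -0.014, Aurka -0.021, Anln -0.049, Top2a -0.091, Nusap1 -0.133 and Bub3 -0.409. The brightness block gave Anln -0.224, Espl1 0.043 and Kif15 0.107, and the 6 dimmer arrays Anln -0.368, Espl1 0.056 and Kif15 0.114. Median centring gave Kif15 0.007, Espl1 0.05 and Kif4 0.093, and quantile normalization Anln -0.118, Kif15 0.009 and Kif4 0.026. Without both replicate 2 arrays Kif22 was -0.086 and Kif4 0.187, and without the alike pair Anln was -0.032 and Espl1 0.267. Leaving out 1 array at a time ranged from -0.368 to 0.324 for Anln, -0.463 to 0.267 for Espl1, -0.469 to 0.114 for Kif15 and -0.329 to 0.063 for Kif4.

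For DETA/NO minus no LIF, the brightness block gave Bub3 0.136, Top2a 0.14, Nusap1 0.233 and Anln 0.415. The 6 dimmer arrays gave Aurka 0.012, Cenpa 0.016, Top2a 0.111, Anln 0.127, Nusap1 0.407 and Bub3 0.416. Averaging probe sets gave Kif20b -0.11, Top2a 0.164 and Bub3 0.306, median centring Smc2 -0.156, and quantile normalization Kif22 0.03, Anln 0.078 and Cdc20 0.241. Without both replicate 2 arrays Cenpf was -0.035, Cenpe -0.154, Smc2 -0.181 and Kif22 0.071. Leaving out 1 array at a time ranged from -0.157 to 0.066 for Anln, -0.434 to 0.278 for Bub3, -0.262 to 0.114 for Cdc20, -0.154 to 0.692 for Cenpe, -0.035 to 0.80 for Cenpf, -0.404 to 0.004 for Incenp, -0.13 to 1.191 for Kif20b, -0.351 to 0.071 for Kif22 and -0.321 to 0.574 for Smc2. For DETA/NO minus LIF, Ube2c was 0.223 over the 6 dimmer arrays.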
